A study of Homo sapiens with 18 samples.

Results

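The genes described here are ICAM1, SOD2, IER3, TNFAIP2, TNFAIP6 and GCNT3, 6 of the 20802 genes on the panel, which were chosen by name as effector genes around the NFκB pathway. Each was matched to a single panel target by its RefSeq identifier (NM_000201, NM_001024465, NM_003897, NM_006291, NM_007115 and NM_004751, in this order). Values of these libraries were known when the genes were chosen, so that their levels relative to the nontargeting siRNA siCtrl#1 are given as a description, without a test. RNA was measured in RKO cells, an established human colorectal carcinoma line, transfected with 30 nM siRNA and harvested at 72 h. The groups were the nontargeting siCtrl#1, which was the reference, the nontargeting siCtrl#2, siTsg101#1 and siTsg101#2 against TSG101, and siVps28#1 and siVps28#2 against VPS28, with 3 biological replicates each, which gave 18 libraries. All groups, the nontargeting ones included, went through transfection, and a single cell line was used. Of the panel, 10246 genes had enough counts to be tested, and all 6 were among them. TNFAIP6 (104 counts over all libraries) and GCNT3 (181 counts) passed the minimum of 100 counts only through the 4 on-target groups, and TNFAIP6 only with the 59 counts of siTsg101#1.

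ESCRT-I is a protein complex on endosomes that sorts ubiquitinated membrane proteins for degradation in lysosomes, and Tsg101 and Vps28 are core subunits of it. NFκB transcription factors are held in the cytoplasm by IκB proteins and move to the nucleus when receptors of cytokines or microbial products are engaged. Their targets comprise cytokines, feedback inhibitors of the pathway itself and effector proteins. Of the genes described here, ICAM1 encodes the intercellular adhesion molecule to which leukocyte integrins bind, SOD2 the mitochondrial manganese superoxide dismutase, and IER3 an immediate early protein linked to cell survival. TNFAIP2 and TNFAIP6 were named for their induction by TNF. The TNFAIP6 product, TSG-6, is a secreted protein that binds hyaluronan and bears no relation to Tsg101. GCNT3 encodes a glycosyltransferase that branches the O-glycans of mucins. The comparison of main interest was the size of the increase after depletion of Tsg101 and after depletion of Vps28.

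Promoter sequence is shown for ICAM1, whose level separated the depletions most clearly, and for TNFAIP6 and GCNT3, which had at most 1 count in any library of the nontargeting siRNAs. The sequences are the 250 bases upstream of the RefSeq start site in GRCh38.p14, 5′ to 3′ on the strand of the gene, which is the plus strand for all 3. Capitals mark matches to the motifs GGAANTTCC (a palindromic form of the NFκB site), TGANTCA (the AP-1 site) and TATAAA.
ICAM1, chr19:10270870-10271119: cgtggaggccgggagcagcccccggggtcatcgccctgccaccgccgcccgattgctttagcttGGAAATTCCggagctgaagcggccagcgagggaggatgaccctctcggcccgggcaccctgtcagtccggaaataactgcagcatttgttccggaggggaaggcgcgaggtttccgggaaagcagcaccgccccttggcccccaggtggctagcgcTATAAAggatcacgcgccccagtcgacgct
TNFAIP6, chr2:151357342-151357591: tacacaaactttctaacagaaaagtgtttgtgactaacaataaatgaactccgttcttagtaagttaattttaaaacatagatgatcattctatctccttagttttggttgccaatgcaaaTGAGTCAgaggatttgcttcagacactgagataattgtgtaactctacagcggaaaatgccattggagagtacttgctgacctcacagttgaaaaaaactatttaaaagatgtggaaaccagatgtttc
GCNT3, chr15:59611533-59611782: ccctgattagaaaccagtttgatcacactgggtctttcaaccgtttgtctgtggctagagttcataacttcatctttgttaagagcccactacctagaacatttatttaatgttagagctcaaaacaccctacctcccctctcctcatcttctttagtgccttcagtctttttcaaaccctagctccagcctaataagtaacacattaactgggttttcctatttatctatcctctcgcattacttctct
ICAM1 held GGAAATTCC from base -186 to -178 and TATAAA from -30 to -25 relative to the start. TNFAIP6 held TGAGTCA from -129 to -123, and GCNT3 held none of the motifs searched. Both strands were searched, and GGAANTTCC and TGANTCA are their own reverse complements. GGAANTTCC was found in 0.826% of all 35116 windows of the same length, TGANTCA in 6.57% and TATAAA in 10.7%. The general 10-letter kB consensus, present in 9.96% of windows, had no match in any window of the genes described here, and GGAANTTCC shares part of its letters with it. IER3 had no promoter window and was not searched for any motif. GGGCGG, the GC box bound by Sp1, was found in 42.6% of windows. It was present in the ICAM1 and TNFAIP2 windows and in each of the 4 SOD2 windows. The TNFAIP2 and SOD2 windows held none of the other motifs. A match is a description of the letters in the window and not a measurement of binding.

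The libraries held 2561790 to 7466916 counted reads. The targeted mRNAs were examined first. TSG101 averaged 118 and 103 CPM (counts scaled to a common library size, TMM-normalised) with siCtrl#1 and siCtrl#2, 3.9 and 3.41 with the siTsg101 siRNAs, and 117 and 118 with the siVps28 siRNAs. VPS28 averaged 103 and 75.1 CPM with the nontargeting siRNAs, 94 and 92.7 with the siTsg101 siRNAs, and 5.68 and 6.11 with the siVps28 siRNAs. Of 7 epithelial markers, KRT18, CDX2, KRT8 and EPCAM were detected in every library, whereas CDH1 had no counts and KRT19 and VIL1 at most 1 and 2. Their summed level was 127 to 167 CPM in the nontargeting libraries, 93.8 to 119 after Tsg101 depletion and 96.4 to 145 after Vps28 depletion. The defining markers of other cell types were at or near 0. Of 8 leukocyte markers 4 had no counts anywhere, PTPRC included, and their summed level did not pass 1.31 CPM. Of 5 endothelial and 6 fibroblast markers 3 each had no counts anywhere, with sums up to 0.525 and 1.54 CPM.

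ICAM1 (ENSG00000090339, GRCh37 chromosome 19, 10381769 to 10397291, plus strand), the adhesion molecule, was 2.93-fold as abundant after Tsg101 as after Vps28 depletion. Replicates 1, 2 and 3 of siCtrl#1 held 83, 78 and 131 ICAM1 counts, and those of siCtrl#2 held 107, 54 and 98. For siTsg101#1 the numbers were 715, 595 and 1371, for siTsg101#2 923, 937 and 584. For siVps28#1 the numbers were 208, 271 and 182, for siVps28#2 401, 287 and 338. All on-target libraries were above all nontargeting libraries after normalization (1.96% of all tested genes), and all siTsg101 libraries were above all siVps28 libraries (3.28%). ICAM1 averaged 21.8 ± 2.63 CPM (SD, n = 3) with siCtrl#1, 19.8 ± 6.96 with siCtrl#2, 213 ± 70.4 (siTsg101#1) and 128 ± 27.4 (siTsg101#2) after Tsg101 depletion, and 55.6 ± 12 (siVps28#1) and 57.1 ± 8.89 (siVps28#2) after Vps28 depletion. In this order of levels, the means of the siRNAs against the same target differed by less than the sum of their SDs, as did those of both nontargeting siRNAs, and the steps from siCtrl#1 to siVps28#1 and from siVps28#2 to siTsg101#2 were larger. Its change relative to siCtrl#1 on the log2 scale was 3.29 (siTsg101#1) and 2.56 (siTsg101#2) after Tsg101 depletion and 1.35 (siVps28#1) and 1.39 (siVps28#2) after Vps28 depletion, with standard errors of 0.25 to 0.26. In bulk RNA, a higher level in each cell and a larger share of cells that express the gene cannot be told apart.

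**Figure D1:**
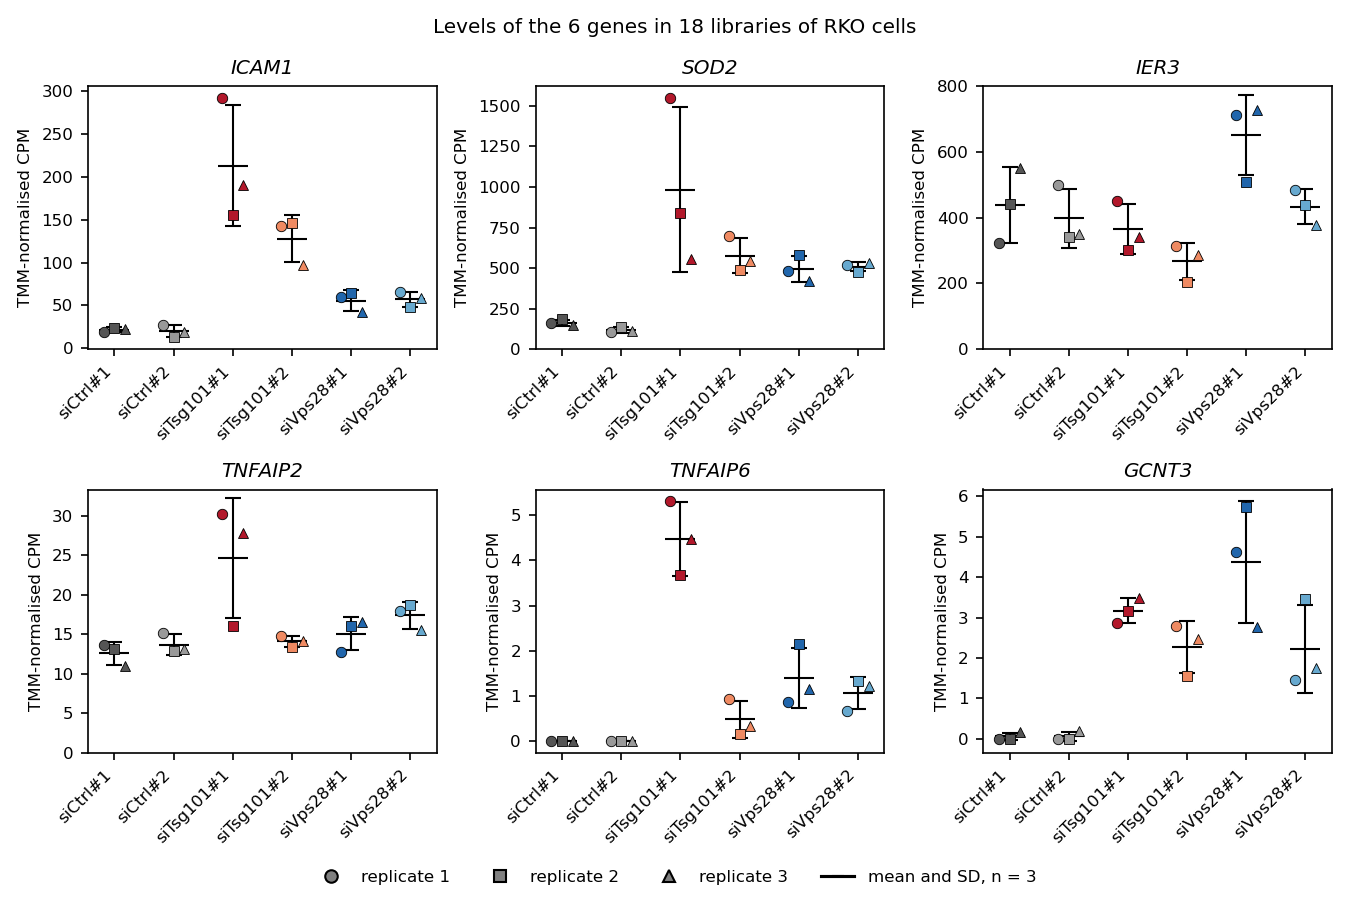
Level of each gene in TMM-normalised CPM (vertical axis, linear) by siRNA group, with symbols for replicates 1 to 3 and black bars for the mean and SD (n = 3). ICAM1 lay between 96.7 and 292 CPM in the siTsg101 libraries and between 42 and 65 in the siVps28 libraries, and TNFAIP6 was at 0 in all 6 nontargeting libraries.

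The direct comparison of both siTsg101 groups with both siVps28 groups does not depend on the level in the nontargeting libraries, which enter the fit only through the normalization and the shared estimate of the spread. ICAM1 was 2.93-fold higher after Tsg101 depletion, a difference of 1.55 on the log2 scale (standard error 0.17, 95% interval 1.18 to 1.92, adjusted p = 6.54e-07 from edgeR). The siTsg101 libraries (96.7 to 292 CPM, median 151) did not overlap the siVps28 libraries (42 to 65 CPM, median 59.4), which held for 3.28% of all tested genes. Of the 10246 genes, 60 had a larger difference in this direction. Within the batches, which are the replicate numbers, the difference was 1.7, 1.44 and 1.45. This difference was known when the genes were chosen, so that its p-value is not independent support. With siTsg101#1 ICAM1 was higher than with siTsg101#2 by 0.73 on the log2 scale (standard error 0.23; edgeR's adjusted p = 0.0535, blocked by replicate number 0.026, 0.00237 to 0.328 over the alternatives), so that the call depended on the fit, and the difference was 0.44 without siTsg101#1 replicate 1. The siVps28 siRNAs differed by -0.04 (95% interval -0.56 to 0.48). Exons of ICAM1 overlap antisense genes in 876 bases, and the strand setting of the counting is not given in the sources used here.

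SOD2 (ENSG00000291237, chromosome 6, 160090101 to 160183561, minus strand), the mitochondrial superoxide dismutase, was higher in all on-target libraries than in all nontargeting libraries (1.96% of all tested genes). Its difference between the depletions was at the threshold of the call. The siCtrl#1 replicates held 700, 596 and 851 SOD2 counts, and the siCtrl#2 replicates 405, 557 and 586. For siTsg101#1 the numbers were 3789, 3202 and 3994, for siTsg101#2 4533, 3142 and 3283. For siVps28#1 the numbers were 1664, 2419 and 1811, for siVps28#2 3213, 2871 and 3041. The mean level was 163 ± 19.1 CPM (SD, n = 3) with siCtrl#1, 118 ± 17.9 with siCtrl#2, 982 ± 509 (siTsg101#1) and 577 ± 110 (siTsg101#2) after Tsg101 depletion, and 492 ± 80.6 (siVps28#1) and 508 ± 28.9 (siVps28#2) after Vps28 depletion. Among the on-target groups, no neighbours in this order differed by more than the sum of their SDs. The large SD of siTsg101#1 came from replicates at 1550, 841 and 557 CPM, the highest of which is replicate 1, the library with the fewest counted reads (2561790). This library was also the highest of all for ICAM1, TNFAIP2 and TNFAIP6. The part of depth in these values was not tested.

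The change of SOD2 relative to siCtrl#1 on the log2 scale was 2.59 (siTsg101#1) and 1.83 (siTsg101#2) after Tsg101 depletion and 1.6 (siVps28#1) and 1.64 (siVps28#2) after Vps28 depletion (standard errors 0.25 to 0.26). Averaged over the siRNAs it was 2.21 for Tsg101 and 1.62 for Vps28 depletion, or 2.68 and 2.09 relative to siCtrl#2, in which SOD2 was lower than in siCtrl#1 by -0.46 (adjusted p = 0.398 from edgeR). The difference between the depletions was 0.59 on the log2 scale (standard error 0.17, 95% interval 0.22 to 0.96, adjusted p = 0.0253 from edgeR), which is at the threshold of 1.5-fold. It was 0.56 (adjusted p = 0.0187) and under 1.5-fold with the replicate number as a block. Without siTsg101#1 replicate 1 it was 0.34 (adjusted p = 0.116), and the call was also lost without siTsg101#2 replicate 1 (0.51, adjusted p = 0.08), siVps28#1 replicate 1 (0.59, adjusted p = 0.051), siVps28#1 replicate 3 (0.54, adjusted p = 0.0691) or siVps28#2 replicate 2 (0.57, adjusted p = 0.0568; all from edgeR, 0.000121 to 0.116 over the alternatives). Within the batches the difference was 1.06, 0.29 and 0.23, and the siTsg101 libraries (489 to 1550 CPM) overlapped the siVps28 libraries (418 to 578). Values of these libraries were known when the genes were chosen, so that the p-values of this difference are not independent support. With siTsg101#1 SOD2 was higher than with siTsg101#2 by 0.76 on the log2 scale (standard error 0.24; edgeR's adjusted p = 0.0536, blocked 0.0393, 0.0011 to 0.52 over the alternatives), or by 0.27 without siTsg101#1 replicate 1. Stretches shared with other genes, counted in runs of 50 bases, make up 21.2% of the longest annotated SOD2 transcript, and its exons overlap SOD2-OT1 on the same strand in 939 bases and antisense genes in 570 bases. Which part of the transcript the panel reads was not known.

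**Figure D2:**
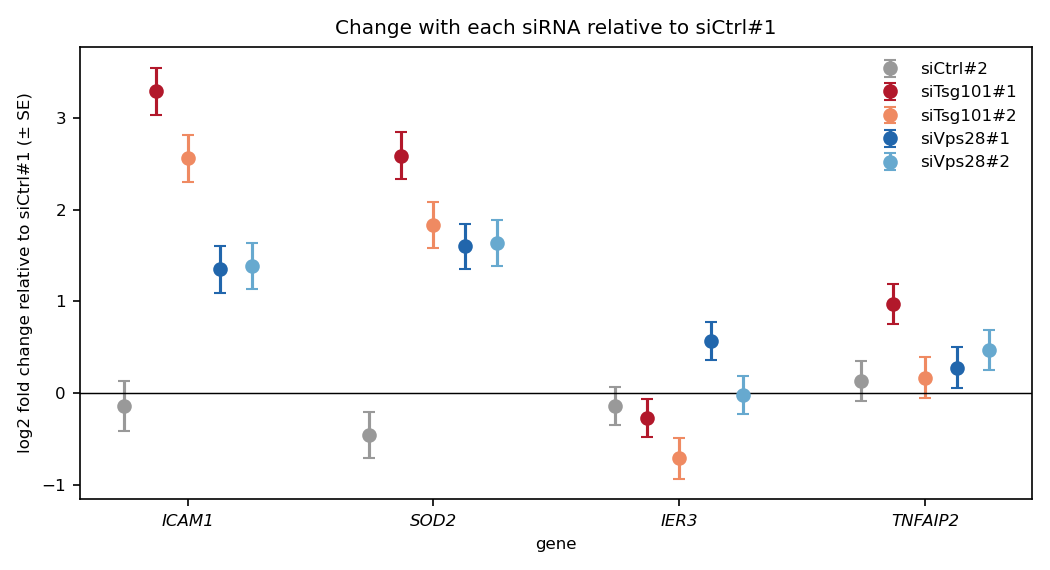
Log2 fold change relative to siCtrl#1 (vertical axis, points ± SE from edgeR) of ICAM1, SOD2, IER3 and TNFAIP2 with siCtrl#2 and each on-target siRNA. All points are relative to the same siCtrl#1 libraries. For ICAM1 the siTsg101 points (3.29 and 2.56) lay above the siVps28 points (1.35 and 1.39), and for IER3 they lay below 0.

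IER3 (ENSG00000137331, chromosome 6, 30710976 to 30712325, minus strand), the immediate early gene, was not higher with all on-target siRNAs and was lower after Tsg101 than after Vps28 depletion. The siCtrl#1 replicates held 1422, 1434 and 3228 IER3 counts, and the siCtrl#2 replicates 1973, 1384 and 1817. For siTsg101#1 the numbers were 1104, 1155 and 2455, for siTsg101#2 2032, 1320 and 1727. For siVps28#1 the numbers were 2473, 2135 and 3160, for siVps28#2 2991, 2652 and 2170. The mean level was 439 ± 115 CPM (SD, n = 3) with siCtrl#1, 398 ± 89.7 with siCtrl#2, 366 ± 76.3 (siTsg101#1) and 268 ± 56.4 (siTsg101#2) after Tsg101 depletion, and 651 ± 122 (siVps28#1) and 434 ± 54.1 (siVps28#2) after Vps28 depletion. No neighbours in the order of these means differed by more than the sum of their SDs, and the nontargeting libraries (323 to 553 CPM) overlapped those of both depletions. On the log2 scale the difference of IER3 from siCtrl#1 was -0.27 (siTsg101#1) and -0.71 (siTsg101#2) after Tsg101 depletion and 0.57 (siVps28#1) and -0.02 (siVps28#2) after Vps28 depletion (standard errors 0.21 to 0.22). Between the depletions IER3 differed by -0.76 on the log2 scale (standard error 0.15, 95% interval -1.09 to -0.43, adjusted p = 0.00136 from edgeR), and 107 genes had a more negative difference. As for ICAM1, the p-value is not independent support, since values of these libraries were known when the genes were chosen. The difference was -0.65, -0.92 and -0.74 within the batches, while the siTsg101 libraries (205 to 451 CPM) and the siVps28 libraries (377 to 729 CPM) overlapped. With siVps28#1 IER3 was higher than with siVps28#2 by 0.59 on the log2 scale (95% interval 0.13 to 1.05, adjusted p = 0.393 from edgeR). The siTsg101 siRNAs differed by 0.44 (95% interval -0.04 to 0.92, adjusted p = 0.225 from edgeR). IER3 exons overlap antisense genes, IER3-AS1 among them, in 525 bases.

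TNFAIP2 (ENSG00000185215, chromosome 14, 103587813 to 103603776, plus strand), whose product takes part in the formation of membrane protrusions, was higher with siTsg101#1 than with siTsg101#2. The siCtrl#1 replicates held 60, 43 and 64 TNFAIP2 counts, and the siCtrl#2 replicates 60, 52 and 68. For siTsg101#1 the numbers were 74, 61 and 199, for siTsg101#2 96, 86 and 86. For siVps28#1 the numbers were 44, 67 and 72, for siVps28#2 111, 113 and 89. The mean level was 12.6 ± 1.44 CPM (SD, n = 3) with siCtrl#1, 13.7 ± 1.32 with siCtrl#2, 24.7 ± 7.59 (siTsg101#1) and 14.1 ± 0.732 (siTsg101#2) after Tsg101 depletion, and 15.1 ± 2.1 (siVps28#1) and 17.4 ± 1.7 (siVps28#2) after Vps28 depletion, and no neighbours in this order differed by more than the sum of their SDs. The siTsg101#1 libraries lay above all nontargeting libraries (11.7% of all tested genes), as did the siVps28#2 libraries (7.21%), and the siTsg101#2 and siVps28#1 libraries overlapped them. The log2 fold changes relative to siCtrl#1 were 0.97, 0.17, 0.28 and 0.47 with siTsg101#1, siTsg101#2, siVps28#1 and siVps28#2 (standard error 0.22). The siTsg101 siRNAs differed by 0.80 (standard error 0.21, adjusted p = 0.0186 from edgeR). This call was lost without siTsg101#1 replicate 1 (0.66, adjusted p = 0.0991) or 3 (0.67, adjusted p = 0.127) and without siTsg101#2 replicate 1 (0.83, adjusted p = 0.0521), 2 (0.75, adjusted p = 0.0768) or 3 (0.8, adjusted p = 0.0567; all from edgeR, 0.00246 to 0.127 over the alternatives). Between the depletions TNFAIP2 differed by 0.20 (95% interval -0.13 to 0.53, adjusted p = 0.439 from edgeR), with 0.48, -0.24 and 0.31 within the batches. For TNFAIP2 too the p-values are not independent support, since values of these libraries were known when the genes were chosen. Its exons overlap an antisense gene in 24 bases.

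TNFAIP6 (ENSG00000123610, chromosome 2, 152214106 to 152236560, plus strand), the hyaluronan-binding TSG-6, had no counts in any of the 6 nontargeting libraries and was detected in all 12 on-target libraries. All on-target libraries were above all nontargeting libraries for 1.96% of all tested genes. For siTsg101#1 the replicates held 13, 14 and 32 counts, for siTsg101#2 6, 1 and 2. For siVps28#1 they held 3, 9 and 5, for siVps28#2 4, 8 and 7. The corresponding levels were 4.48 ± 0.816 CPM (SD, n = 3), 0.471 ± 0.404, 1.39 ± 0.674 and 1.06 ± 0.363. A count of 0 in siCtrl#1 allows up to 0.222 CPM (3 counts over the group, counting error only). Relative to this limit the observed TNFAIP6 level was 19.8-fold higher with siTsg101#1 and 2.14-fold higher with siTsg101#2. For siVps28#1 and siVps28#2 the values were 6.38-fold and 4.76-fold. The counting error of the on-target counts, only 9 for siTsg101#2, was not included in these values. The siTsg101 siRNAs differed from each other more than the depletions did. TNFAIP6 was 8.9-fold higher with siTsg101#1 than with siTsg101#2, a difference of 3.15 on the log2 scale with 59 counts against 9, and the libraries of these siRNAs did not overlap (14.3% of all tested genes). TNFAIP6 passed the minimum of 100 counts only through siTsg101#1, so that the test is given from the fit without a low-count filter (standard error 0.59, adjusted p = 1.16e-05 from edgeR). Over the alternatives, which include fits with the minimum, the adjusted p was 1.16e-05 to 0.00583. These p-values are not independent support in either case, since values of these libraries were known when the genes were chosen. The siVps28 siRNAs differed by 0.41 (95% interval -0.79 to 1.61). Between the depletions the difference was 0.26 (95% interval -0.68 to 1.2, adjusted p = 0.767 from edgeR) and was 1.25, -0.47 and 0.25 within the batches. Without siTsg101#2 replicate 1 it was -0.2.

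GCNT3 (ENSG00000140297, chromosome 15, 59887074 to 59932438, plus strand), the O-glycan branching enzyme, had a single count in each nontargeting group and was detected in every on-target library, at 1.55 to 3.49 CPM after Tsg101 and 1.46 to 5.73 CPM after Vps28 depletion. Replicates 1, 2 and 3 held 0, 0 and 1 counts in either nontargeting group. For siTsg101#1 the numbers were 7, 12 and 25, for siTsg101#2 18, 10 and 15. For siVps28#1 the numbers were 16, 24 and 12, for siVps28#2 9, 21 and 10. Every on-target library was above every nontargeting library (1.96% of all tested genes), although GCNT3 was tested only through its on-target counts. The on-target levels were 3.17 ± 0.316 CPM (SD, n = 3), 2.27 ± 0.639, 4.37 ± 1.5 and 2.22 ± 1.09, and neighbours in their order differed by less than the sum of their SDs. Over both nontargeting groups together, which had 2 counts, the level after Tsg101 depletion was 35.8-fold (exact 95% counting interval 9.63 to 301) and after Vps28 depletion 41-fold (11 to 343). The difference between the depletions was -0.20 on the log2 scale (standard error 0.28, 95% interval -0.81 to 0.41, adjusted p = 0.719 from edgeR). Within the batches it was 0.07, -0.89 and 0.36, and without siVps28#2 replicate 2 it was 0.04. The siVps28 siRNAs differed by 0.96 (95% interval 0.11 to 1.81, adjusted p = 0.476 from edgeR). Stretches shared with other genes make up 4.7% of the longest GCNT3 transcript.

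**Figure D3:**
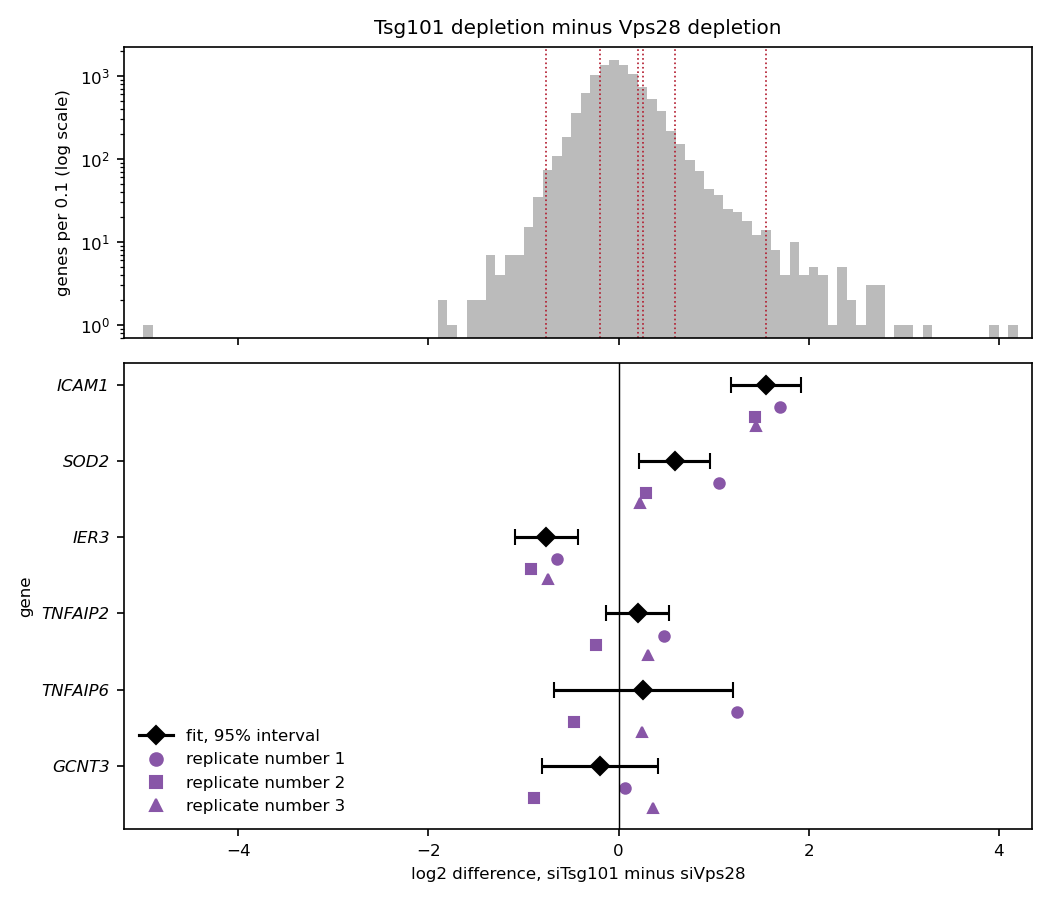
Upper panel: number of genes (log axis) in bins of 0.1 of the log2 difference between Tsg101 and Vps28 depletion for the 10246 tested genes, with dotted lines at the 6 genes. Lower panel: the difference of each gene with its 95% interval (diamonds) and within each replicate number (small symbols, from log2 CPM with a prior count of 2). ICAM1 (1.55) lay far to the right and IER3 (-0.76) to the left of most genes, and the intervals of TNFAIP2, TNFAIP6 and GCNT3 included 0.

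Of the 6 genes, ICAM1 and SOD2 were called higher after Tsg101 than after Vps28 depletion (4.12% of all tested genes were, at 1.5-fold or more and an adjusted p under 0.05 from edgeR) and IER3 was called lower (2.08% of all tested genes). TNFAIP2 was called higher with siTsg101#1 than with siTsg101#2 (3.2% of genes), as was TNFAIP6, which had enough counts only through siTsg101#1, and 0 of the 6 genes were called lower by edgeR or by DESeq2 or had an unadjusted p under 0.05 in this direction (3.74% of genes). Between the siVps28 siRNAs, which called 0.215% of genes higher and 0.273% lower, 0 of the 6 genes were called by edgeR or by DESeq2, and 2 (IER3 and GCNT3) had an unadjusted p under 0.05. Between siCtrl#2 and siCtrl#1, which called 1.4% of genes higher and 0.664% lower, 0 of the 4 genes with enough counts were called by either tool, and 0 had an unadjusted p under 0.05.

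The other NFκB targets were taken from a list of 76 genes, which was written from general knowledge with earlier results of these data known. The calls of all 4 on-target siRNAs share the same siCtrl#1 libraries. Of the list, 47 genes had enough counts. Of these, 21 (44.7%) passed both thresholds upward for each on-target siRNA, against 2.55% of all genes, and 0 passed downward for each, against 1.56%, by edgeR, by DESeq2 or at an unadjusted p under 0.05. The 21 genes comprised 8 of 11 cytokines, 9 of 12 feedback regulators and NFκB subunits, 3 of 8 survival genes and 1 of 8 surface proteins. Of 8 enzymes and other effectors, transcription factors included, 0 passed by edgeR or by DESeq2, although 2 had an unadjusted p under 0.05 with all 4 siRNAs. Relative to siCtrl#1 the listed genes had a median log2 fold change of 0.96 after Tsg101 and 1.03 after Vps28 depletion. The medians of all genes were -0.015 and 0.006. Those of the list were the same with TNFRSF9, the gene without counts in siCtrl#1, set to its value against 3 counts. The median difference between the depletions was 0 for the list and -0.017 for all genes. In this direct comparison 2 of the 47 genes were called higher after Tsg101 depletion (4.12% of all tested genes). A further 1 was called higher after Vps28 depletion (2.08%), and 44 passed in neither direction. These counts were close to the shares of all genes. DESeq2 called 3 and 1, and 9 and 5 had an unadjusted p under 0.05 from edgeR.

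TNFAIP3, which encodes the deubiquitinating NFκB inhibitor A20, averaged 2.36 CPM with siCtrl#1, 14.6 after Tsg101 and 4.94 after Vps28 depletion, and the depletions differed by 1.51 on the log2 scale (standard error 0.21, adjusted p = 1.67e-05 from edgeR). BCL3, an atypical IκB protein, averaged 1.68, 7.32 and 1.73 CPM in the same order, and the depletions differed by 2.03 (standard error 0.31, adjusted p = 7.34e-05). CSF2, the cytokine GM-CSF, differed in the opposite direction by -1.15 (standard error 0.29, adjusted p = 0.0108), with 3.59 CPM after Tsg101 and 6.79 after Vps28 depletion. Its log2 change relative to siCtrl#1 was 3.46 (siTsg101#1), 1.76 (siTsg101#2), 3.27 (siVps28#1) and 4.25 (siVps28#2). The level with siTsg101#1 was thus not below that with siVps28#1. The listed genes with the largest common increase were the receptor TNFRSF9 (4-1BB) and the chemokines CXCL8, CXCL3, CXCL1 and CCL20. Relative to the limit that 0 counts in siCtrl#1 allow, the observed TNFRSF9 level was 50-fold higher after Tsg101 and 23.6-fold higher after Vps28 depletion. CXCL8 averaged 0.926 CPM with siCtrl#1, 120 after Tsg101 and 80.1 after Vps28 depletion. CXCL3 averaged 0.319, 8.14 and 9.68 CPM in the same order, and 1.03 CPM with siCtrl#2. CXCL1 and CCL20 had 1 count each in siCtrl#1. Relative to siCtrl#1, CXCL1 was 39.2-fold (exact 95% counting interval 6.86 to 1560) and 21.2-fold (3.62 to 854) higher after Tsg101 and Vps28 depletion, and CCL20 32.5-fold (5.67 to 1300) and 20.7-fold (3.54 to 836). Relative to both nontargeting groups together, CXCL1 was 19.4-fold (7.32 to 72.5) and 10.5-fold (3.83 to 40) higher, and CCL20 64.3-fold (11.2 to 2570) and 41-fold (7 to 1650). These 5 genes were not called different between the depletions (adjusted p from 0.104 to 0.422, edgeR).

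**Figure D4:**
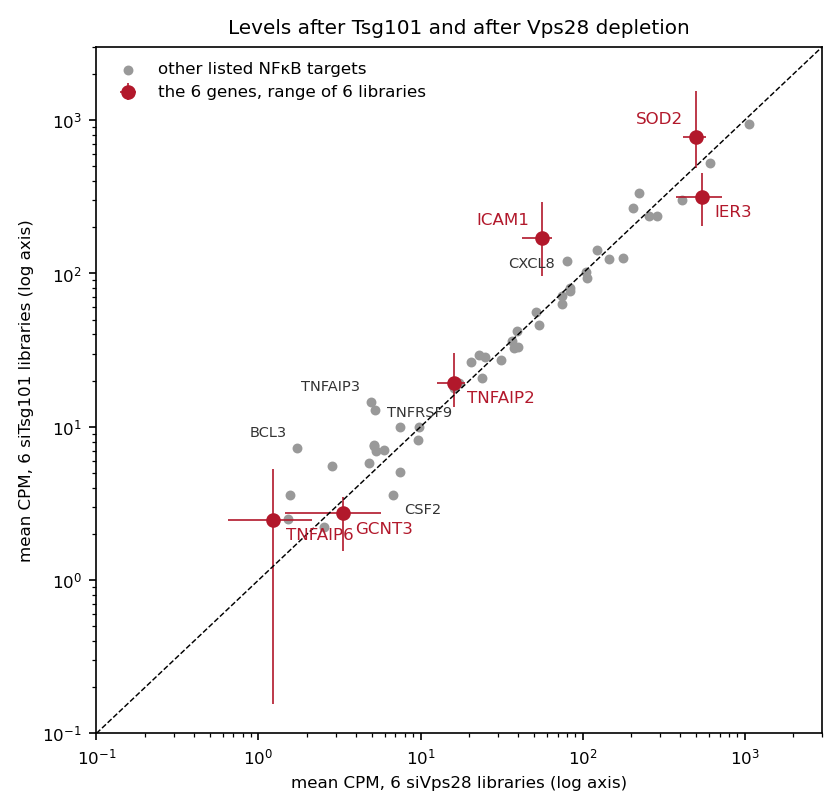
Mean level after Tsg101 depletion (vertical) against the mean level after Vps28 depletion (horizontal), both in CPM on log axes, for the 47 other NFκB targets (grey) and the 6 genes (red, with the range of the 6 libraries on each side). The dashed line marks equal levels. ICAM1 (171 against 56.3 CPM), TNFAIP3 and BCL3 lay above it and IER3 (317 against 542 CPM) and CSF2 below.

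Relatives of the 6 genes were described in the same fits. Of the tested ICAM family members (2), antioxidant enzymes (9), IER family members (3), hyaluronan matrix genes (4) and O-glycan enzymes (4), 0 were commonly up- or down-regulated and 0 were called between the depletions by edgeR or DESeq2. Of all tested genes, edgeR called 2.55% higher and 1.56% lower with each on-target siRNA. Between the depletions it called 4.12% higher and 2.08% lower after Tsg101 depletion. In lists of this size 0 is close to these shares. At an unadjusted p under 0.05, 1 O-glycan enzyme was higher and 1 antioxidant enzyme lower with all 4 siRNAs, and between the depletions 1 antioxidant enzyme, 1 IER family member and 1 hyaluronan matrix gene differed. The median log2 fold change of the antioxidant enzymes relative to siCtrl#1 was -0.31 after Tsg101 and -0.07 after Vps28 depletion, against 2.21 and 1.62 for SOD2. Of the other TNFAIP genes and a TNFAIP8-like gene, 4 were tested and 2, TNFAIP3 and TNFAIP8, were commonly up-regulated. TNFAIP8, a regulator of cell survival, averaged 0.679 CPM with siCtrl#1, 7.63 after Tsg101 and 5.13 after Vps28 depletion, a difference between the depletions of 0.15 (adjusted p = 0.801 from edgeR).

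The genes whose levels followed each of the 6 most closely were sought among 9252 genes by the Pearson correlation of log2 CPM over the 18 libraries. The correlations describe libraries that share their siRNA groups, and no p-value was computed. ICAM1 was followed by N4BP3 (r = 0.945) and TUT7 (0.945), which were also higher after Tsg101 than after Vps28 depletion in mean level (10.1 and 3.59 CPM, and 42.3 and 16.9 CPM). SOD2 was followed by NFKBIA (0.955), which encodes IκBα, IRAK2 (0.949), a kinase of interleukin-1 receptor signalling, and CXCL8 (0.946). GCNT3 was followed by NFKBIZ (0.952), which encodes IκBζ, CXCL8 (0.951) and IRAK2 (0.942). TNFAIP6 was followed by TNFRSF9 (0.932), PI3 (0.918), which encodes the protease inhibitor elafin, and GCH1 (0.912), the first enzyme of tetrahydrobiopterin synthesis. TNFAIP2 was followed by TBC1D10A (0.871), YWHAZ (0.866) and OTUD7B (0.856). For IER3 the highest values were lower, with ABHD16A (0.806), the proteasome subunit PSMB5 (0.806) and the amino acid transporter SLC38A2 (0.781). Among the 6 genes, ICAM1 and SOD2 correlated with r = 0.91, while IER3 correlated with the others between -0.27 and 0.11.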

How the data were processed

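RNA of RKO cells was measured with the Ion AmpliSeq Transcriptome panel on an Ion Proton instrument in 18 libraries. The authors aligned the reads to the hg19 reference of the panel with TMAP and counted them with HTSeq (version 0.6.0 in the submitters' processing notes). They deposited whole-number counts per transcript target for each library, without normalization. Lines that name no gene were left out of library sizes: 48.23% to 49.07% of reads were assigned to no feature. The 10 spike-in targets were left out.

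Genes with more than 100 counts over all libraries were kept, and noncoding types were left out, as in the study's methods, which left 10246 genes. Counts were TMM-normalized and fitted with edgeR 4.0.16 in R 4.3.3, all 6 groups sharing a single model and estimate of the spread. The test was edgeR's quasi-likelihood test, and p-values were adjusted over all genes after Benjamini and Hochberg. Calls required a change of 1.5-fold and an adjusted p under 0.05. Standard errors derive from the test statistic, and 95% intervals from the t distribution with 12 residual degrees of freedom. Levels are TMM-normalised CPM, to be compared between libraries and not between genes. For a group with 0 counts, 3 counts over the group were used as the limit, and with 1 to 3 counts the ratio has an exact counting interval. Intervals and limits of this kind cover counting error only, since reads carry no molecular identifiers. Folds relative to the limit take the on-target counts as observed, without their counting error. Replicates of a group differed by more than sampling noise (chi-square per degree of freedom 5.36 to 25.57).

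The replicate number is given as the batch in the labels, so that it pairs libraries across groups. Deviations of same-numbered libraries from their group means correlated with a mean of 0.145 over 45 pairs (-0.147 to 0.389). The alternatives were the replicate number as a block, DESeq2 1.42.0, RLE size factors, a minimum of 10 counts in each library or no minimum at all, noncoding types kept, the adjusted p alone, only the compared groups in the fit, another reference, and each library left out in turn.

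The genes, lists, motifs and tests were chosen with earlier results of these data known. Named besides the 6 genes are TSG101 and VPS28, the 5 listed NFκB targets with the largest common increase, up to 3 called differences between the depletions in each direction, the relatives called, and the 3 genes most alike in level, of which 1 for ICAM1 is not reported here. Positions are from GENCODE on GRCh37, the build of the files, and promoter windows from RefSeq (GRCh38.p14), with a window for 5 of the 6 genes and none for IER3.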

Additional observations from a re-analysis of the deposited data

Results flagged for a closer look

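The following results differed between arms of the same contrast in a test of the difference itself (edgeR). Values of these libraries were known when the genes were chosen, so that these tests are not independent support. ICAM1 was higher after Tsg101 than after Vps28 depletion by 1.55 on the log2 scale, with every siTsg101 library above every siVps28 library (3.28% of all tested genes). SOD2 differed in the same direction by 0.59, a value that fell to 0.34 without siTsg101#1 replicate 1. IER3 differed in the opposite direction by -0.76.

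The siRNAs against Tsg101 also differed from each other. TNFAIP6 was higher with siTsg101#1 than with siTsg101#2 by 3.15 on the log2 scale (59 counts against 9), although it had enough counts to be tested only through siTsg101#1. TNFAIP2 was higher by 0.80. This call was lost without siTsg101#1 replicate 1 or 3 and without any of the siTsg101#2 replicates (adjusted p from 0.0521 to 0.127, edgeR). TSG101 itself was at 3.9 CPM with siTsg101#1 and 3.41 CPM with siTsg101#2, a difference of 0.27 (95% interval -0.65 to 1.19).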

How the results depend on the processing

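ICAM1 and IER3 kept their direction and call between the depletions under all 26 alternatives (leave-one-out 1.41 to 1.65 and -0.85 to -0.68 on the log2 scale). Between the siTsg101 siRNAs TNFAIP6 kept its call under the 25 in which it was tested (2.74 to 4.06). TNFAIP6 passed the count minimum only through siTsg101#1, so that a kept call in fits with this minimum is not support for the difference. With the replicate number as a block SOD2 lost its call between the depletions (0.56), which left 1 gene called higher in place of 2, and ICAM1 (0.71) and SOD2 (0.72) were called between the siTsg101 siRNAs, which made 4 genes in place of 2, TNFAIP6 included. The block changed no other call of the 6 genes. DESeq2 and the fit without a low-count filter also gave 4 genes there, and a minimum of 10 counts in every library, at which TNFAIP6 and GCNT3 were not tested, gave 1.

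With single libraries left out, 1 to 2 genes were called higher between the depletions and 1 to 4 between the siTsg101 siRNAs. TNFAIP2 lost its call between the siTsg101 siRNAs without siTsg101#1 replicate 1 or 3 and without any of the siTsg101#2 replicates. Uncalled differences near 0 changed sign: between the depletions TNFAIP6 (-0.2 to 0.48) and GCNT3 (-0.33 to 0.04), between the siVps28 siRNAs ICAM1 (-0.17 to 0.13), SOD2 (-0.18 to 0.06) and TNFAIP6 (-0.05 to 0.62), and between siCtrl#2 and siCtrl#1 ICAM1 (-0.42 to 0.07) and IER3 (-0.34 to 0.06).

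Over all genes, the adjusted p alone called 663 higher and 550 lower between the depletions, in place of 422 and 213. Between the siTsg101 siRNAs 328 were called higher and 383 lower (198 to 370 and 221 to 446 with single libraries left out). Between the siVps28 siRNAs 22 were called higher and 28 lower (6 to 27 and 4 to 34). DESeq2 gave 48 lower, the block 49 lower, no low-count filter 77 higher and 72 lower, and the fit of the compared groups alone 14 and 12. Between siCtrl#2 and siCtrl#1 143 were called higher and 68 lower (71 to 244 and 22 to 197). DESeq2 gave 106 lower, the block 118 lower, no low-count filter 235 higher and 121 lower, and the fit of the compared groups alone 67 and 21. Except where the number of genes or groups differs by construction, the cause of these moves was not tested. TNFAIP6 and GCNT3 had at most 32 and 25 counts in any library, and their 95% intervals between the depletions ran from -0.68 to 1.2 and from -0.81 to 0.41.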
